A study of Bos taurus with 16 samples.

Results

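Genes of extracellular matrix crosslinking and remodelling were followed in the liver of Angus steers. The 10 members were TGFB1, TGFBI, LOX, LOXL1, LOXL2, MMP2, MMP14, TIMP1, TIMP2 and TIMP3. All 10 carried a single symbol in the array's probe annotation, among 18010 genes that did, and each was read from its brightest probe set. Only the LOX and MMP members are enzymes, and the others are inhibitors, a growth factor and a matrix protein. The finishing group was 8 weaned steers raised to 576 kg, and the growing group was 8 steers raised to 301 kg. Steers entered at 209 ± 29.4 kg, were assigned to a phase at random and were fed a diet based on cotton seed hulls for a gain of 1.5 kg per day. Labelled cRNA from 1 liver sample per steer was measured on 16 arrays as log2 signals. Phase therefore carries heavier weight, greater age and a longer feeding period at once, and these cannot be told apart.

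In liver the interstitial matrix is made mainly by stellate cells and portal fibroblasts. TGF beta 1, held latent in the matrix until it is released, signals through receptor kinases to SMAD proteins and induces matrix genes, TGFBI among them. Lysyl oxidases are copper-dependent enzymes that oxidise lysines of collagen and elastin so that fibres become crosslinked. Matrix metalloproteinases cut these proteins, and TIMPs bind and block the metalloproteinases. MMP14 sits in the cell membrane and, with TIMP2 as a bridge, activates the secreted gelatinase MMP2.

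Array medians lay between 5.57 and 5.64, and correlations between arrays of a group ran from 0.974 to 0.988 in finishing and from 0.982 to 0.990 in growing steers. Finishing replicates 5 and 6 correlated least with the rest of their group (median r of 0.978 and 0.981). The hepatocyte transcripts ALB and FGB averaged 13.7 and 13.5 in finishing livers and 13.7 and 13.5 in growing livers, near the top of the scale. Of the members, 9 were brighter than the median probe set (5.595) and LOXL2 was dimmer. The table holds no detection calls, so a change in a dim member may be compressed.

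Of the 10 members, 5 were lower in finishing livers: the growth factor TGFB1, its induced matrix protein TGFBI, the lysyl oxidase LOXL1 and the proteinases MMP2 and MMP14. The 5 others, LOX, LOXL2 and the 3 TIMPs, did not pass the test. By limma 0 members were higher, also 0 at an unadjusted p under 0.05 and 0 by an exact permutation test. Over all 26773 probe sets, 4.30% (1151) were lower and 2.34% (626) higher at an adjusted p under 0.05, limma's p with Benjamini-Hochberg adjustment over every probe set. Centring arrays on ribosomal protein genes made these 1622 and 370, with the same number of members lower. Of the 18010 genes with a single symbol, each read from its brightest probe set, 1019 were lower and 486 higher. With probe sets dimmer than the median removed before the fit, 1317 of the remaining probe sets were lower and 821 higher, and again 5 members were lower. The members' median difference was -0.38 on the log2 scale, beside 0.025 over all probe sets. The members were chosen with results of these arrays already known, so their count describes them and does not test them as a group.

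**Figure D1:**
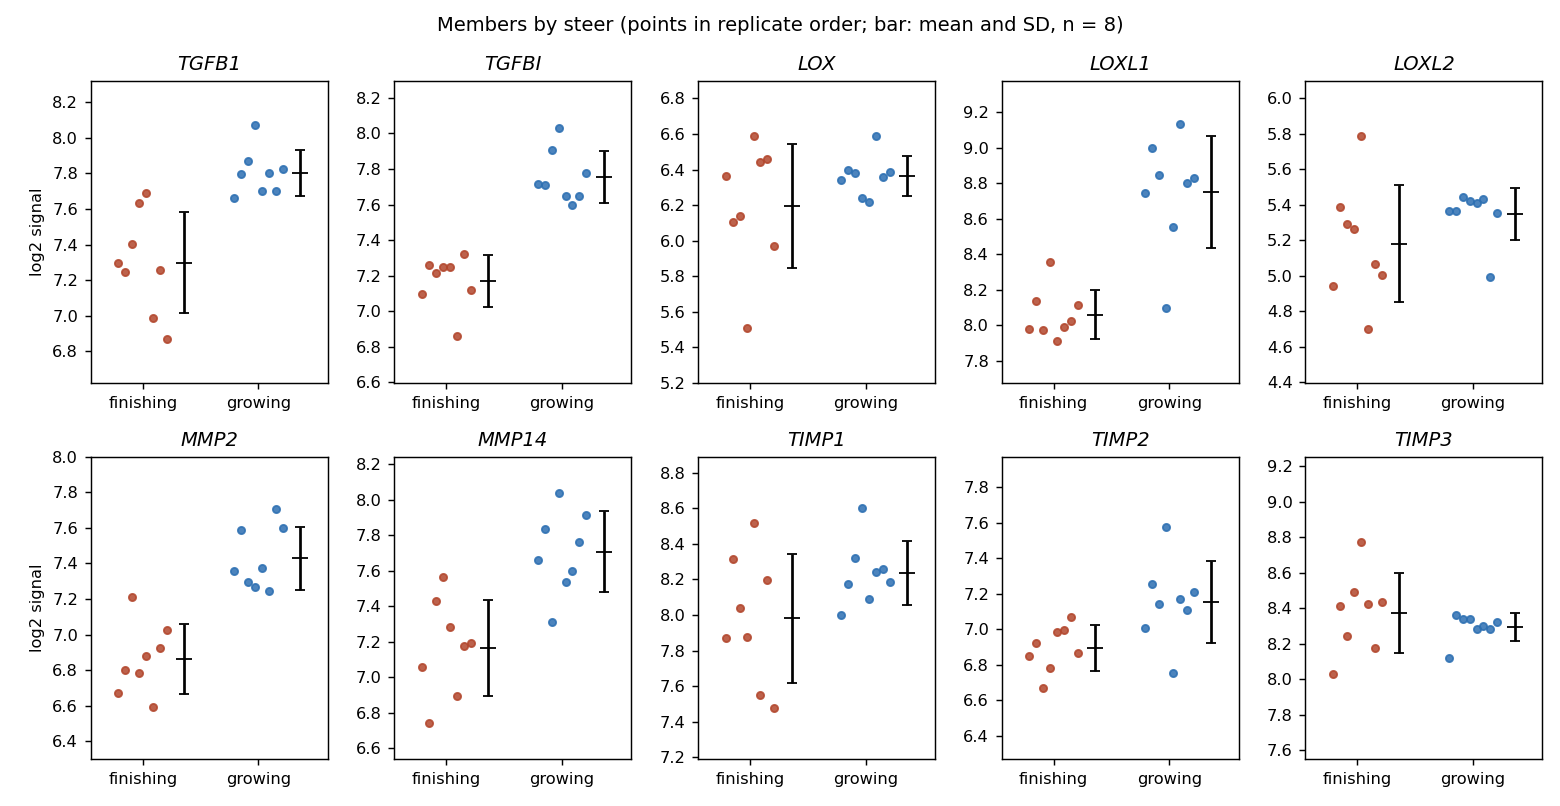
Log2 signal of each member in every steer, with finishing steers on the left and growing steers on the right of each panel, and the mean and SD of 8 steers as a bar. Each panel spans 1.7 log2 units around its own values. TGFBI and MMP2 show a gap between the groups, and the groups of TIMP3 overlap.

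TGFB1, the ligand, was measured by probe set 12755803. It ran from 6.87 through a median of 7.28 to 7.69 in finishing livers, and from 7.66 through 7.80 to 8.07 in growing livers. In 7 of 8 finishing steers TGFB1 lay below every growing steer, and finishing replicate 5 reached just into the growing range. The change of TGFB1 was -0.51 ± 0.11 (SE, n = 8 per group, limma adjusted p = 0.0105), or 1.42-fold lower in finishing livers. Finishing steers also spread more widely in TGFB1, with an SD of 0.28, against 0.13 in growing steers.

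TGFBI is a secreted protein that binds collagens and integrins (probe set 12881135). Its signal ran from 6.86 through a median of 7.23 to 7.32 in finishing livers, and from 7.60 through 7.72 to 8.03 in growing livers. The groups did not overlap for TGFBI, with all 8 finishing steers lower, a separation that 0.717% of all probe sets showed in this direction. TGFBI was 1.50-fold lower in finishing livers, and its adjusted p by limma was 0.000996. Finishing replicate 6 was the lowest steer and growing replicate 4 the highest. TGFBI differed in its change from TGFB1 by -0.078 ± 0.086 (SE, exact permutation p = 0.385, adjusted p = 0.616 over 8 such comparisons), with 2 finishing steers below and 2 above all growing steers.

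Of the 3 lysyl oxidases among the members, LOXL1 alone passed the test. LOXL1, a lysyl oxidase that acts on elastin (probe set 12791675), ran from 7.91 through a median of 8.01 to 8.35 in finishing livers, and from 8.10 through 8.82 to 9.13 in growing livers. Growing replicate 4, at 8.10, was the only growing steer of LOXL1 within the finishing range, and the other 7 growing steers exceeded every finishing steer. The change of LOXL1 was -0.69 ± 0.12 on the log2 scale (limma adjusted p = 0.00316), the greatest among the members, or 1.61-fold lower.

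LOX, the founding member of the family (probe set 12876752), ran from 5.51 through a median of 6.25 to 6.59 in finishing livers, and from 6.22 through 6.37 to 6.59 in growing livers. The groups of LOX shared their upper end, while 4 finishing steers lay below all growing steers. Its difference was -0.17 ± 0.12 (95% interval -0.43 to 0.092, limma adjusted p = 0.467).

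LOXL2, which crosslinks basement membrane collagen (probe set 12894529), ran from 4.70 through a median of 5.16 to 5.79 in finishing livers, and from 4.99 through 5.39 to 5.44 in growing livers. Finishing replicate 5 exceeded all growing steers in LOXL2 and 2 finishing steers lay below them all. Its difference was -0.17 ± 0.12 (95% interval -0.42 to 0.089, limma adjusted p = 0.463).

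The change of LOXL1 was set against those of the other lysyl oxidases within each array, as part of 8 such comparisons within families. LOX minus LOXL1 was higher in finishing livers by 0.52 ± 0.19 (SE), with 5 of 8 finishing values over every growing value and 1, finishing replicate 4, under them all (exact permutation p = 0.0176, adjusted p = 0.0468 over the 8). LOXL1 minus LOXL2 was lower (-0.52 ± 0.18), with 1 of 8 finishing steers below all growing steers (exact permutation p = 0.0106, adjusted p = 0.0468). Both adjusted p lay just under the threshold, and the differences kept their direction when arrays were dropped. When arrays were dropped 1 at a time, the LOX minus LOXL1 call remained in 4 of 16 cases (dropping growing replicate 4 or finishing replicate 2, 4 or 8), with a difference of 0.45 to 0.66 and an adjusted p of 0.00622 to 0.0850 over the 16. The LOXL1 minus LOXL2 call remained in 7 (dropping growing replicate 4 or 5, or finishing replicate 2, 4, 6, 7 or 8), with a difference of -0.63 to -0.42 and an adjusted p of 0.00746 to 0.0804 over the 16. Dropping finishing replicates 5 and 6 together gave differences of 0.38 and -0.47 (adjusted p = 0.149 and 0.128). LOX and LOXL2 differed in their changes by -0.00091 ± 0.18 (SE, exact permutation p = 0.996), with 3 finishing steers below and 3 above all growing steers.

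Both metalloproteinases fell. MMP2, gelatinase A (probe set 12749561), ran from 6.59 through a median of 6.84 to 7.21 in finishing livers, and from 7.24 through 7.37 to 7.71 in growing livers. As with TGFBI, the groups of MMP2 did not overlap, by a narrow margin between finishing replicate 3 at 7.21 and growing replicate 6 at 7.24. The change of MMP2 was -0.57 ± 0.093 (limma adjusted p = 0.00268), or 1.48-fold lower in finishing livers.

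MMP14, the membrane-bound activator of MMP2 (probe set 12693536), ran from 6.74 through a median of 7.18 to 7.56 in finishing livers, and from 7.31 through 7.71 to 8.04 in growing livers. In MMP14 6 of 8 finishing steers lay below every growing steer, and growing replicate 3 was the lowest of its group. The change of MMP14 was -0.54 ± 0.12 (limma adjusted p = 0.0131), or 1.45-fold lower. MMP2 and MMP14 differed in their changes by -0.029 ± 0.12 (SE, exact permutation p = 0.807).

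The 3 inhibitors did not pass the test. TIMP1, a soluble inhibitor of most secreted metalloproteinases (probe set 12902909), ran from 7.48 through a median of 7.96 to 8.52 in finishing livers, and from 8.00 through 8.21 to 8.60 in growing livers. Finishing steers were more spread than growing steers in TIMP1 (SD of 0.36, against 0.18), and 4 of them lay below all growing steers. Its difference was -0.25 ± 0.13 (95% interval -0.54 to 0.029, limma adjusted p = 0.292).

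TIMP2, the inhibitor that bridges MMP14 and MMP2 (probe set 12760918), ran from 6.67 through a median of 6.90 to 7.07 in finishing livers, and from 6.75 through 7.16 to 7.57 in growing livers. Growing replicate 5, at 6.75, lay low within its group, and 6 of 8 growing steers lay above all finishing steers. The difference of TIMP2 was -0.26 ± 0.093 (95% interval -0.46 to -0.063), and its limma adjusted p was 0.107, with an unadjusted p of 0.0125. Without growing replicate 5 the difference was -0.32 and passed (adjusted p = 0.0346). TIMP2 alone had 2 probe sets, and the dimmer one, at 4.45 in finishing and 4.46 in growing livers, differed by -0.0083 ± 0.076 (adjusted p = 0.966). The mean of both gave -0.13 (adjusted p = 0.301).

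TIMP3, an inhibitor that stays bound to the matrix (probe set 12857108), ran from 8.03 through a median of 8.42 to 8.77 in finishing livers, and from 8.12 through 8.31 to 8.36 in growing livers. In TIMP3 5 finishing steers exceeded the whole growing group and 1 lay under it. Its difference was 0.078 ± 0.085 (95% interval -0.10 to 0.26, limma adjusted p = 0.648), the only positive one among the members. Without finishing replicates 5 and 6 it was 0.0033.

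TIMP2 minus TIMP3 was lower in finishing livers (-0.34 ± 0.11 SE), with 4 of 8 finishing steers below all growing steers (exact permutation p = 0.0123, adjusted p = 0.0468 over the 8 comparisons). This call remained in 6 of the 16 cases with an array dropped (growing replicate 5 or finishing replicate 1, 2, 6, 7 or 8), with a difference of -0.39 to -0.28 and a highest adjusted p of 0.0804 over the 16. It was also lost without finishing replicates 5 and 6 (-0.29, adjusted p = 0.143). It was lost as well with the mean of the TIMP2 probe sets (-0.21, adjusted p = 0.0858). TIMP1 minus TIMP3 was -0.33 ± 0.14, lower in 5 of 8 finishing steers than in all growing steers, and missed the threshold (adjusted p = 0.0671). It passed without finishing replicate 2 (adjusted p = 0.0398) or 7 (adjusted p = 0.0162). TIMP1 and TIMP2 differed by 0.0061 ± 0.13 (exact permutation p = 0.961). Whether metalloproteinases and their inhibitors changed unequally was not tested.

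**Figure D2:**
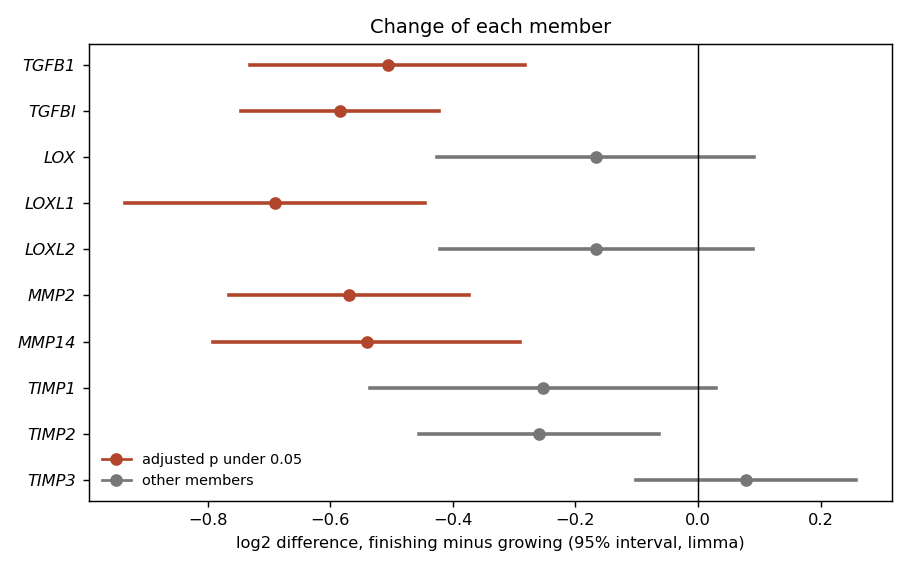
Log2 difference of each member, finishing minus growing, with its 95% interval from limma (n = 8 steers per group). The 5 members with an adjusted p under 0.05 lie between -0.69 and -0.51, and the intervals of LOX, LOXL2, TIMP1 and TIMP3 cover 0.

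The calls of TGFB1, TGFBI, LOXL1, MMP2 and MMP14 held in all 16 fits that left out 1 array, with a highest adjusted p of 0.0217, 0.00322, 0.00818, 0.00670 and 0.0291 in that order. They also held without finishing replicates 5 and 6 together, with a highest adjusted p of 0.0407, for MMP14. Precision is set by 8 steers a group, and members that missed the threshold are not shown to be unchanged.

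How the members varied among steers of the same phase was described over the 8 arrays of each group. Each p given with a correlation, here and below, is that of Pearson r, also where Spearman rho stands beside it. In finishing steers 30 of 45 pairs of members had a positive Pearson r, with a median of 0.16, and in growing steers 27 of 45 did, with a median of 0.11. By exact permutation 0 of the 90 correlations passed after adjustment over all 90, by Pearson or by Spearman, while 5 in finishing and 7 in growing steers had an unadjusted Pearson p under 0.05. LOXL2 and MMP2 in growing steers had the smallest Pearson p, with r = -0.77 (Spearman rho = -0.90, exact permutation p = 0.00134, adjusted p = 0.121). Without the 2 growing steers farthest in LOXL2 r was -0.86, and in all 8 finishing steers it was 0.37. LOXL2 and TIMP1 had r = 0.83 in finishing steers (rho = 0.86, exact permutation p = 0.00987, adjusted p = 0.176) and 0.055 in growing steers. TGFB1 and TIMP1 had r = 0.71 in finishing steers (Spearman rho = 0.60, exact permutation p = 0.0495, adjusted p = 0.371). In growing steers TGFB1 and TIMP1 had r = 0.91 (rho = 0.74, exact permutation p = 0.00536, adjusted p = 0.161). Without the 2 steers farthest from the median TGFB1 these r were 0.28 and 0.50, lower over the narrower range that remained. TGFB1 and TGFBI had r = 0.84 in growing steers (rho = 0.60, exact permutation p = 0.0110, adjusted p = 0.176, and 0.72 without the 2 farthest steers).

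The correlation of LOX with LOXL1 had opposite signs in the groups. In finishing steers r was -0.92 (rho = -0.74, exact permutation p = 0.00427, adjusted p = 0.161), and -0.65 without the 2 steers farthest in LOX. In growing steers r was 0.83 (rho = 0.95, exact permutation p = 0.0178, adjusted p = 0.229), and 0.99 without the 2 farthest. Finishing replicate 4 had the lowest LOX and the highest LOXL1 of its group, at 5.51 and 8.35. Neither value passed adjustment, and the difference between the groups was not tested.

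For each of the 5 lower members, the 3 genes most like it were taken by Pearson r of deviations from the group means over the 16 arrays, out of 17058 genes. These r share the same arrays and were the highest of many, so they describe these steers and carry no p. MMP14 was most like CMTM3 (r = 0.89), CYBB, the phagocyte oxidase subunit (0.89), and PRKACB (0.88). CMTM3 and CYBB were also lower in finishing livers (-0.53 ± 0.098 and -0.80 ± 0.21, limma adjusted p = 0.00503 and 0.0274), and PRKACB differed by -0.47 ± 0.15 (adjusted p = 0.0638). TGFB1 was most like the scaffold protein IQGAP1 (r = 0.86), SLA (0.84) and GPR21 (0.84), of which IQGAP1 was lower in finishing livers (-0.35 ± 0.093, adjusted p = 0.0289). SLA differed by -0.22 (adjusted p = 0.408) and GPR21 by 0.21 (adjusted p = 0.295).

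MMP2 was most like HAPLN1, a hyaluronan link protein (r = 0.82), ARRDC4 (0.81) and TMEM98 (0.79). ARRDC4 and TMEM98 were lower in finishing livers (-0.45 ± 0.098 and -0.85 ± 0.15, limma adjusted p = 0.0126 and 0.00428), whereas HAPLN1 differed by -0.016 (adjusted p = 0.948). TGFBI was most like UBE2D3 (r = 0.87), EML4 (0.86) and RAD21L1 (0.86), with differences of -0.0088, -0.13 and 0.097 (adjusted p = 0.954, 0.291 and 0.833). LOXL1 was most like the water channel AQP11 (r = 0.84), MGC134040 (0.84) and MAPK6 (0.79), with differences of -0.26, 0.057 and -0.15 (adjusted p = 0.554, 0.819 and 0.491).

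Other genes of the same processes were read from 7 lists holding 119 genes beside the members, of which 113 were measured. By limma 17 were lower, or 15.0%, and 5 higher, or 4.42%, with a median difference of -0.11. The shares of all probe sets given above were 4.30% and 2.34%, with unnamed and dim probe sets among them. Of the 18010 genes with a single symbol, read as the list genes were, 1019 were lower and 486 higher. Lower genes included elastic fibre components. In the list of genes known to be induced by TGF beta 2 were lower, the collagens COL1A1 and COL1A2, and 2 higher, CCN2 and PMEPA1.

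In the crosslinking and collagen modification list 3 of 18 genes were lower and 1 higher, with a median of -0.16. TGM2, tissue transglutaminase, which crosslinks proteins through glutamine, averaged 7.77 ± 0.14 in finishing livers and 8.52 ± 0.39 in growing livers (SD, n = 8 each, difference -0.75 ± 0.14 SE, limma adjusted p = 0.00475). ADAMTS2, which removes the amino-terminal propeptide of procollagen, was lower (-0.44 ± 0.068, adjusted p = 0.00205), with no overlap between the groups. PCOLCE, an enhancer of procollagen C-proteinase, was lower (-0.44 ± 0.13, adjusted p = 0.0445). LOXL3, another lysyl oxidase, went the other way, at 5.20 ± 0.076 in finishing livers and 4.96 ± 0.15 in growing livers (SD), a difference of 0.24 ± 0.067 SE (adjusted p = 0.0397). LOXL3 lies below the median probe set. The LOXL3 call was lost without any of finishing replicates 1, 2, 5, 6, 7 and 8 or growing replicates 2, 5, 6 and 7 (highest adjusted p = 0.0802). The PCOLCE call was lost without any of finishing replicates 1, 2, 4, 6 and 7 or growing replicates 1, 2, 5, 6, 7 and 8 (highest adjusted p = 0.0861).

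Among 28 other metalloproteinases and inhibitors 2 were lower and 1 higher, with a median of -0.019. ADAM10, a membrane sheddase, was lower (-0.38 ± 0.073, limma adjusted p = 0.00711), with no overlap between the groups. ADAMTS9, a proteoglycan-cleaving proteinase, was lower (-0.23 ± 0.066, adjusted p = 0.0472), and MMP16, a membrane-type metalloproteinase, was higher by 0.30 ± 0.085 (adjusted p = 0.0460). MMP16 lies below the median probe set, and with such dim probe sets removed 0 genes of this list were higher. Dropping single arrays ended the ADAMTS9 and MMP16 calls in 12 of 16 cases each, the adjusted p reaching 0.0901 and 0.0875. The ADAMTS9 call went without any of finishing replicates 1, 2, 3, 6, 7 and 8 or growing replicates 1, 2, 5, 6, 7 and 8. The MMP16 call went without any of finishing replicates 1, 2, 3, 4, 6 and 7 or growing replicates 1, 2, 3, 6, 7 and 8. In the plasminogen system 1 of 8 genes was lower, PLAU, the urokinase activator of plasminogen (-0.35 ± 0.089, adjusted p = 0.0237). With finishing replicates 5 and 6 dropped, the difference of PLAU was -0.35 and its adjusted p 0.0689.

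**Figure D3:**
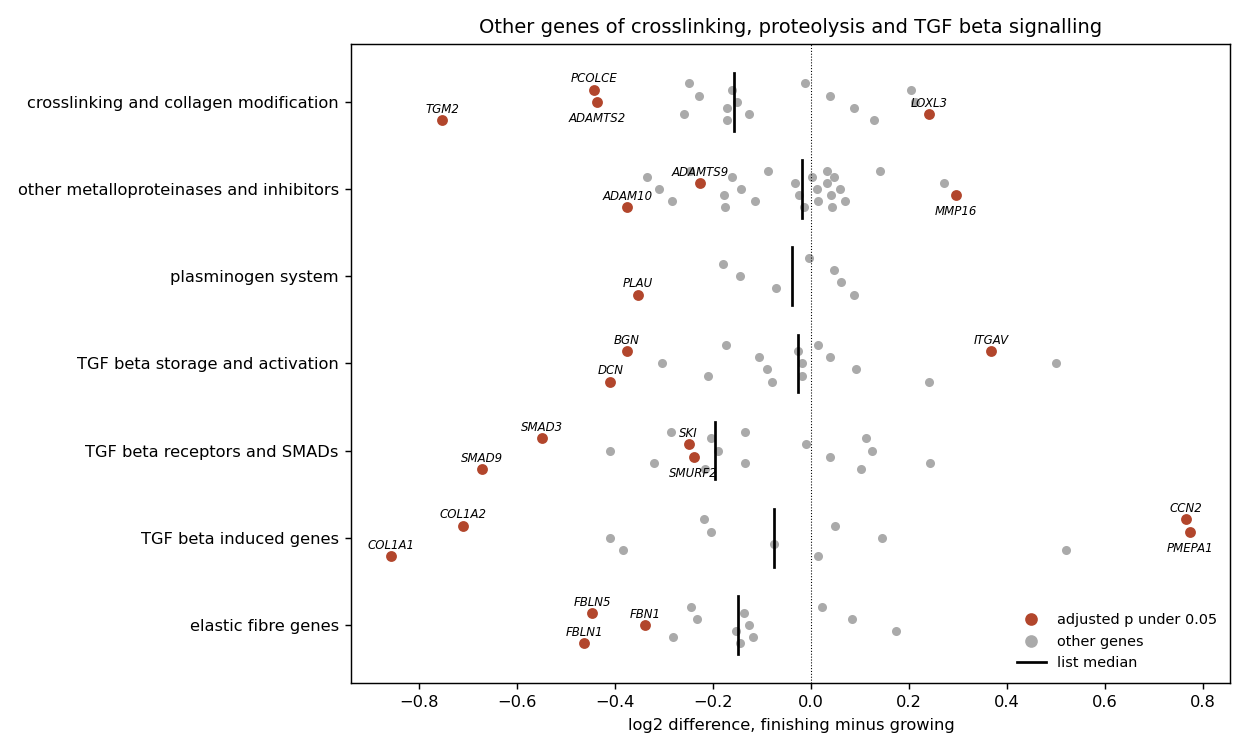
Log2 difference, finishing minus growing, of the 113 measured genes in 7 lists beside the members, with genes past an adjusted p of 0.05 in red and named, the others in grey, and each list's median as a black line. SMAD7, SKIL and LTBP2 stand in 2 lists each where measured. In the list of TGF beta induced genes COL1A1 and COL1A2 (-0.86 and -0.71) lie farthest left and CCN2 and PMEPA1 (0.77 each) farthest right.

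Genes around TGF beta did not move 1 way. Of 18 receptors and SMADs 4 were lower, with a median of -0.20, and 14 did not pass. SMAD3, which carries the TGF beta signal to the nucleus, averaged 7.07 ± 0.28 in finishing livers and 7.61 ± 0.19 in growing livers (SD, difference -0.55 ± 0.11 SE, limma adjusted p = 0.00948). SMAD9, a mediator of bone morphogenetic protein signals, was lower (-0.67 ± 0.16, adjusted p = 0.0195) and lies below the median probe set. With finishing replicates 5 and 6 dropped the difference of SMAD9 was -0.69 and its adjusted p 0.0511. The corepressor SKI and the ubiquitin ligase SMURF2, both brakes on the pathway, were lower (-0.25 ± 0.070 and -0.24 ± 0.067, adjusted p = 0.0400 and 0.0384). The SKI call was lost without any of finishing replicates 1, 2, 5 and 6 or growing replicates 1, 2, 3, 5, 6, 7 and 8 (highest adjusted p = 0.0764). That of SMURF2 was lost without any of finishing replicates 2, 5, 6 and 8 or growing replicates 1, 2, 5, 6 and 7 (highest adjusted p = 0.0764).

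Of 17 genes that store or release TGF beta 2 were lower and 1 higher. BGN and DCN, proteoglycans that bind TGF beta, were lower (-0.38 ± 0.057 and -0.41 ± 0.064, limma adjusted p = 0.00180 and 0.00205), and neither gene's groups overlapped. ITGAV, the integrin alpha chain of receptors that release latent TGF beta, averaged 8.49 ± 0.12 in finishing livers and 8.12 ± 0.18 in growing livers (SD), a difference of 0.37 ± 0.079 SE (adjusted p = 0.0116).

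Among 13 genes known to be induced by TGF beta, TGFBI left aside, 2 were lower and 2 higher, with a median of -0.076. The fibrillar collagen chains COL1A1 and COL1A2 were lower (-0.86 ± 0.13 and -0.71 ± 0.11, limma adjusted p = 0.00174 and 0.00224), and the groups of neither overlapped. CCN2, connective tissue growth factor, ran from 5.85 through a median of 6.18 to 6.64 in finishing livers, and from 5.06 through 5.50 to 5.88 in growing livers. CCN2 was higher in 7 of 8 finishing steers than in every growing steer, a change of 0.77 ± 0.13 (adjusted p = 0.00410) that held in all 16 fits that left out 1 array. PMEPA1, a TGF beta induced gene that dampens SMAD signalling, ran from 7.42 through 7.64 to 8.68 in finishing livers, and from 6.85 through 7.11 to 7.49 in growing livers. The change of PMEPA1 was 0.77 ± 0.19 (adjusted p = 0.0222). Without finishing replicates 5 and 6 the change of CCN2 was 0.64 (adjusted p = 0.0182) and that of PMEPA1 0.58 (adjusted p = 0.0765).

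Elastic fibre genes, which include substrates of the lysyl oxidases, had 3 of 14 members lower and a median of -0.15. FBLN5, fibulin 5, known to bind LOXL1, averaged 7.15 ± 0.17 in finishing livers and 7.59 ± 0.25 in growing livers (SD, difference -0.45 ± 0.10 SE, limma adjusted p = 0.0172). FBLN1, fibulin 1, was lower (-0.46 ± 0.12, adjusted p = 0.0236), as was FBN1, fibrillin 1 (-0.34 ± 0.088, adjusted p = 0.0284). With finishing replicates 5 and 6 dropped the differences of FBLN5, FBLN1 and FBN1 were -0.44, -0.49 and -0.34, and their adjusted p 0.0548, 0.0510 and 0.0738 with fewer arrays. The FBN1 call was also lost without any of finishing replicates 2, 7 and 8 or growing replicates 2, 7 and 8 (highest adjusted p = 0.0581).

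Some markers of matrix-producing cells, macrophages, lymphocytes and endothelial cells were lower in finishing livers. By limma 4.30% of all probe sets were lower at an adjusted p under 0.05. In these bulk samples fewer cells of a type and less RNA per cell cannot be told apart. Of 14 stellate cell and fibroblast markers 9 were lower, with a median of -0.46, among them its brightest, DCN and LUM (-0.41 and -0.97, limma adjusted p = 0.00205 and 0.000189). The mean signal of that list ran from 6.92 to 7.14 in finishing livers and from 7.45 to 7.68 in growing livers, with no overlap. DCN, COL1A1 and COL1A2 stand in this list and in those above. Of 10 Kupffer cell and macrophage markers 4 were lower (median -0.42), with overlapping list means of 8.55 to 9.80 in finishing livers and 9.36 to 9.91 in growing livers. The brightest macrophage markers, C1QB and C1QC, differed by -0.38 and -0.47 (adjusted p = 0.0657 and 0.0742). CD163 and MARCO, of the same list, differed by 0.48 and 0.10 (limma adjusted p = 0.244 and 0.900). Of 8 T and NK lymphocyte markers 4 were lower and all 8 differences were below 0 (median -0.58), with list means of 5.01 to 5.76 in finishing livers and 5.61 to 6.41 in growing livers. CD3E, a chain of the T cell receptor complex, was lower without overlap between the groups (-0.74 ± 0.13, limma adjusted p = 0.00473), and NKG7 differed by -0.41 (adjusted p = 0.0765). The part of these markers in the members' changes was not tested.

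Of 12 endothelial markers 2 were lower and 10 did not pass, with list means of 8.47 to 8.75 in finishing livers and 8.56 to 8.85 in growing livers. The 2 lower ones were PECAM1 and CDH5 (-0.34 and -0.38, limma adjusted p = 0.0226 and 0.0238). For each of them 7 of 8 finishing steers lay below every growing steer. The brightest endothelial markers, LYVE1 and ENG, differed by 0.061 and -0.22 (limma adjusted p = 0.770 and 0.110). The hepatocyte list (7 markers, 12.6 to 12.8 in finishing and 12.7 to 12.9 in growing livers) and the cholangiocyte list (8 markers, 4.98 to 5.46 and 5.18 to 5.64) had 0 called by limma. The mesothelial list (6 markers, 4.69 to 4.95 and 4.75 to 5.17) and the smooth muscle list (5 markers, 6.59 to 7.03 and 6.52 to 6.89) also had 0. At an unadjusted p under 0.05 these 4 lists had 2, 1, 1 and 0 lower and 0, 1, 0 and 0 higher markers. The share of all probe sets at that threshold is not given here, so these counts are only descriptive. The brightest cholangiocyte markers, EPCAM and CFTR, differed by -0.65 and 0.35 (limma adjusted p = 0.253 and 0.0587). The brightest mesothelial markers, KRT8 and UPK3B, differed by 0.10 and -0.088 (adjusted p = 0.855 and 0.549). Among smooth muscle markers MYH11 and TAGLN differed by 0.023 and 0.14 (adjusted p = 0.928 and 0.568).

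**Figure D4:**
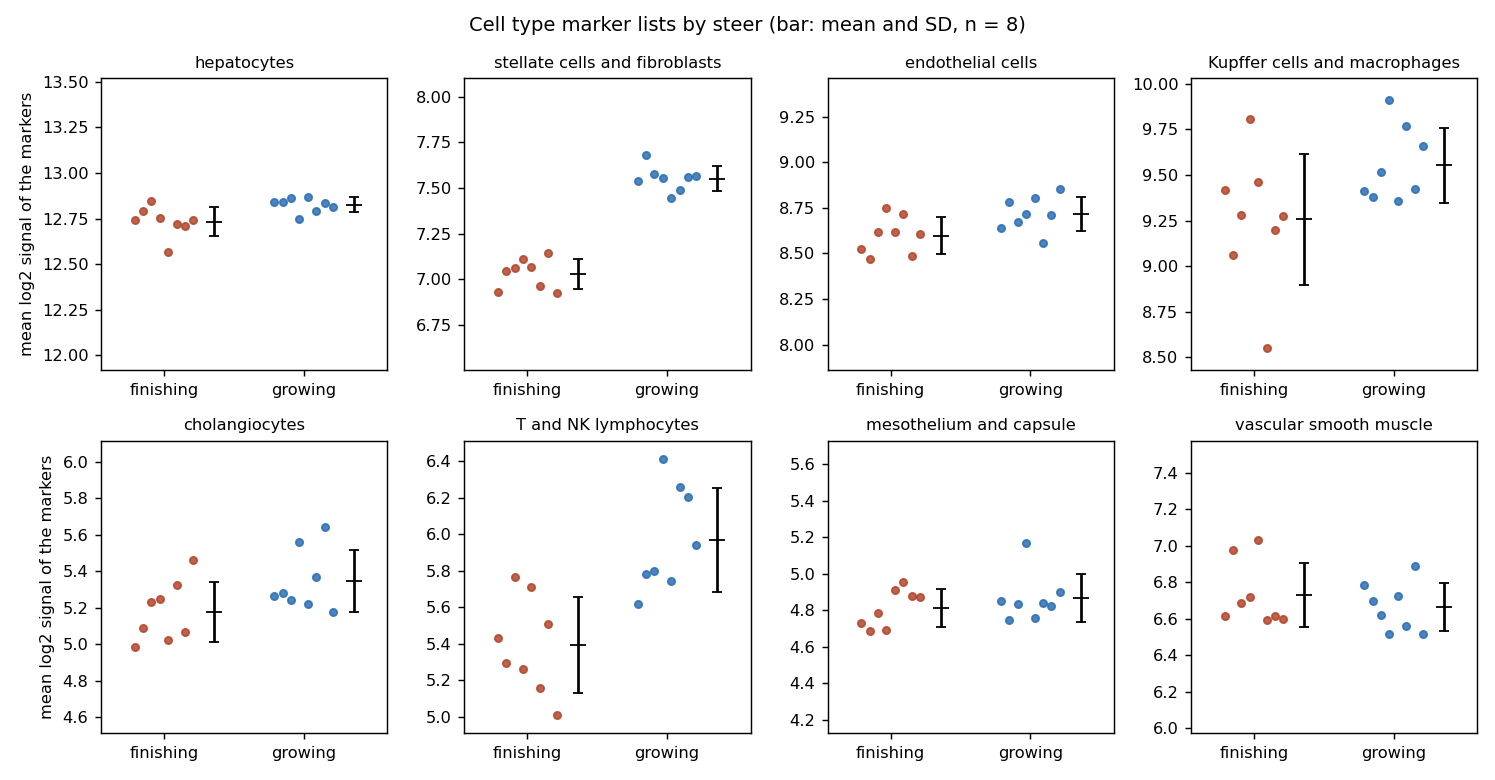
Mean log2 signal of each cell type marker list in every steer, finishing steers left and growing steers right, with the mean and SD of 8 steers as a bar. Each panel spans 1.6 log2 units. The stellate cell and fibroblast list is the one whose groups leave a gap, at 6.92 to 7.14 in finishing and 7.45 to 7.68 in growing livers.

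Within a phase, members were set against the list means of stellate cells, macrophages and endothelial cells, in 60 correlations of 8 steers each chosen after seeing the data. By exact permutation 0 passed after adjustment over the 60, and 5 had an unadjusted Pearson p under 0.05. TGFBI and the stellate and fibroblast list had a positive correlation in finishing steers (r = 0.75, rho = 0.74, exact permutation p = 0.0188, adjusted p = 0.363, and 0.89 without the 2 farthest steers). The same held for MMP14 and the macrophage list in finishing steers (r = 0.74, rho = 0.79, exact permutation p = 0.0328, adjusted p = 0.394, and 0.57 without the 2 farthest). In growing steers TGFB1, TIMP1 and TIMP2 had r of 0.81, 0.75 and 0.75 with the macrophage list (rho = 0.71, 0.74 and 0.62, exact permutation p = 0.0109, 0.0232 and 0.0242, adjusted p = 0.363 each). Without the 2 farthest steers these r were 0.63, 0.37 and 0.50. With 8 steers a group these relations are descriptions of these animals.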

How the data were processed

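Per the labels, liver RNA extracted with Trizol was made into biotin-labelled cRNA by the Affymetrix protocol, and GCOS 1.2 and Partek 6.4 are listed, with no role given, per the submitters' processing notes. The deposited values are log2 signals of 26773 probe sets, as judged from their range of 1.48 to 14.1. They were used as deposited. Summarisation and normalisation are not given in the sources used here, but levels were not centred per gene, and array medians lay between 5.57 and 5.64. No dates or scan batches were used here. Groups came from the sample titles.

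Gene names come from the platform annotation, where 18457 probe sets carry 1 symbol, 688 several and 7628 none. Each gene was read from its probe set with the highest mean. Older symbols were sought in RefSeq's genes for ARS-UCD2.0, used for names only, and no sequences are shown.

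Finishing was compared with growing with limma's lmFit and eBayes (no trend, 2-sided; limma 3.58.1, R 4.3.3), and p-values were Benjamini-Hochberg adjusted across the whole table. Adjusted p-values without another name come from this fit. Errors of differences are its SE, except in comparisons between 2 members, where the SE is that of the per-array difference. Those comparisons used 2-sided exact permutation over 12870 arrangements, and correlations used 40320 orders. The p-values printed for single correlations are those of Pearson r. The fit was tested on simulated data. P-values of group differences judge them against the spread between animals sampled once each.

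Members and lists were chosen with earlier results of these data known. Named are all members, up to 6 called genes per list by p, the 3 genes most like each called member, and the 2 brightest markers per cell type. The macrophage markers CD163 and MARCO and the endothelial markers PECAM1 and CDH5 were named besides. Alternatives were quantile normalisation, centring on array medians or ribosomal protein genes, a robust trend, array weights, filters on dim probe sets, annotated probe sets only, averaging probe sets, a replicate block, exact permutation, a threshold of 0.01, and leaving out arrays.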

Additional observations from a re-analysis of the deposited data

Results flagged for a closer look

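Each of the 32 members and named list genes was examined for a steer far from the other 7 of its group, by the gap to its neighbour over the group's range. Of the 64 groups examined 5 were set apart, and chance sets apart about 1 in 20. LOXL2 was 4.99 in growing replicate 7, while the other growing steers ran from 5.35 to 5.44. TIMP3 was 8.12 in growing replicate 1, while the others ran from 8.29 to 8.36. PCOLCE was 6.11 in finishing replicate 5, while the others ran from 6.80 to 7.02. COL1A2 was 7.62 in growing replicate 7, while the others ran from 6.98 to 7.22. ITGAV was 8.52 in growing replicate 4, while the others ran from 7.98 to 8.21. Without growing replicate 7 LOXL2 still missed the threshold, as in all 16 fits that left out 1 array (limma adjusted p from 0.155 to 0.683), and TIMP3 ran from 0.370 to 0.906.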

How the results depend on the processing

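The count of 5 lower members was the same under every alternative tried except those named next. A threshold of 0.01 kept 3 (TGFBI, LOXL1 and MMP2), and leaving out 1 array gave 5 to 6. The exact permutation test at an unadjusted p gave 6, with TIMP2. The share of all probe sets at that unadjusted threshold is not given here, so that 6 is only descriptive. The count of higher members was 0 throughout. Over all probe sets, leaving out 1 array gave 858 to 1324 lower and 410 to 881 higher, against 1151 and 626 with all arrays. Centring on ribosomal protein genes gave 1622 lower and 370 higher. The threshold of 0.01 gave 319 and 112, and leaving out finishing replicates 5 and 6 gave 654 and 288. With the replicate block 642 were lower and 268 higher, and the same 5 members were called, with a highest adjusted p of 0.0371. The block ended the calls of SMAD3, ITGAV, FBLN5 and FBN1 (limma adjusted p = 0.0538, 0.0529, 0.0642 and 0.0754). It also ended those of LOXL3, PCOLCE, MMP16, ADAMTS9, SMURF2 and SKI, and the other named list genes kept theirs. The list of receptors and SMADs then had 1 lower gene, against 2 with quantile normalisation, and the elastic fibre list had 1. Equal replicate numbers share nothing in the labels, deviations of equal-numbered arrays correlated from -0.15 to 0.041, and 1 of 8 finishing arrays correlated best with its own number. Some differences between members changed sign without passing a test in any fit. TIMP1 minus TIMP2 was -0.12 with averaged probe sets and -0.057 to 0.082 without 1 array. LOX minus LOXL2 ran from -0.10 to 0.11 and MMP2 minus MMP14 from -0.0995 to 0.039 without 1 array. The cause of these shifts was not tested. Without detection calls, dim members such as LOXL2 have an unknown distance from background.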
